A study of Mus musculus with 12 samples.

Results

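The clustered protocadherins are the cell adhesion genes of the *Pcdha*, *Pcdhb* and *Pcdhg* clusters, which lie next to each other on mouse chromosome 18. Every protein-coding gene of the count table whose symbol names one of these clusters was taken, whatever its level. This gave 57 of the 55471 genes, with 14 in the alpha, 22 in the beta and 21 in the gamma cluster. *Pcdhgb8*, which is annotated as a polymorphic pseudogene, was not included. RNA-seq libraries were made from primary hippocampal cultures of wild-type (WT) mice. The neurons were prepared from late-gestation embryos of CD1 mice, from litters of mixed sex. At day in vitro (DIV) 7 the cultures received control gapmers or gapmers against *Neuid* (Gm10419), and RNA was collected at DIV 10, with 6 libraries per group. A gapmer is an antisense oligonucleotide that directs RNase H to its target RNA, and the control gapmer has no known target in the genome. Both were delivered in lipid nanoparticles, so the carrier and the genotype were common to the groups called control and *Neuid* KD. Markers of neurons and of other cells were both present: in control libraries, 15 pan-neuronal markers summed to 7569 to 8848 CPM (reads relative to the TMM-scaled size of the library) and homeostatic astrocyte markers to 2411 to 3037 CPM. The labels do not say whether the libraries of a group came from separate preparations, so the p-values measure the spread between these libraries, which may be technical.

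Clustered protocadherins are cadherin-like membrane proteins that recognise identical isoforms on the facing membrane, and neurons use this to tell their own branches from those of other neurons. Each alpha or gamma isoform has its own promoter and its own large first exon, which is spliced to constant exons that all isoforms of the cluster share, whereas a beta isoform has a single-exon coding sequence and lacks that constant cytoplasmic end. A neuron switches on a varied selection of the alternate isoforms through promoter choice by CTCF and cohesin, while the C-type isoforms at the end of the alpha and gamma clusters are regulated separately and are used more broadly.

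The members can be told apart by their unshared exons alone. On GRCm38 (mm10), all 57 genes are on the plus strand of chromosome 18. The alpha cluster runs from 36930184 to 37187661, the beta cluster from 37264938 to 37524479 and the gamma cluster from 37661793 to 37841873, as annotated in GENCODE. A length of exon found in no other gene of the same strand was computed for each member and ranged from 494 to 8695 bases. Reads in exons shared between genes were not assigned: Gm42416, a read-through gene annotated from the alpha to the gamma cluster with 0 unshared bases, held 0 reads in all 12 libraries. Of the 2904 bases in the first exon of *Pcdha4*, 2410 are shared with it, and *Pcdha4* held 0 to 4 reads per library and was not tested. Its low value therefore says little about its expression. The other 56 members were tested. GENCODE gives the symbol *Pcdha11* to 2 identifiers, and ENSMUSG00000007440 is called *Pcdha10* here after the RefSeq gene at its position. Isoforms also resemble each other in sequence. The share of 50-base windows that recurred in another gene was highest in *Pcdha6* (29.2%), *Pcdha7* (25.5%) and *Pcdha8* (18.8%), whose values are less certain for it, and was 5.47% in *Pcdhb20*, 7.45% in *Pcdhgb4*, 6.37% in *Pcdhgb5* and 0 in *Pcdhgc3* and *Pcdhac2*.

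Between 11152556 and 30914714 reads were counted per library, of which 6901 to 19902 fell on the members. This was 0.0600% to 0.0648% of the reads in control and 0.0619% to 0.0695% in *Neuid* KD. *Neuid* itself was at 26.0 to 31.01 CPM in control and at 6.32 to 9.55 CPM in *Neuid* KD, without overlap. The libraries differed in reads on chemosensory receptor genes, which are not known as genes of hippocampal neurons and which were taken as a measure of background. These summed to at least 100 CPM in 4 control and 3 *Neuid* KD libraries and to less in 2 and 3. The smallest library was replicate 1 of *Neuid* KD, with a background of 616 CPM, and it held the lowest CPM of its group for 36 of the 56 tested members.

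Members differed in level by far more than the groups did. Levels were compared between genes as CPM per kb of unshared exon, over all 12 libraries. *Pcdhgc3*, a gamma C-type isoform that can bind the Wnt pathway scaffold Axin1, was highest at 25.7 CPM per kb, followed by *Pcdhac2*, the alpha C-type isoform needed for the even spread of serotonergic axons, at 20.04 CPM per kb. In control libraries the order of this pair was not resolved, at 19.7 ± 1.13 CPM per kb for *Pcdhgc3* and 20.03 ± 1.48 for *Pcdhac2* (SD, n = 6). Next came the alternate isoforms *Pcdhga11* at 8.97 and *Pcdhga3* at 8.00 CPM per kb. The highest alternate alpha isoform was *Pcdha12* at 5.23 and the highest beta isoform was *Pcdhb20* at 3.25 CPM per kb. By class, the median level was 4.57 CPM per kb for the 12 gamma A genes, 2.86 for the 6 gamma B genes, 2.78 for the 12 alternate alpha genes and 1.71 for the 22 beta genes. The other C-type isoforms were spread through this range, from *Pcdhac1* at 1.48 to *Pcdhgc4* at 5.02 CPM per kb. *Pcdhgc3* and *Pcdhac2* together took 19.3% to 26.1% of all member reads in a library. The 10 members with the highest level per kb were the same 10 genes in control and *Neuid* KD. In mean CPM per gene over both groups, the highest members were *Pcdhac2* in the alpha, *Pcdhb22* in the beta and *Pcdhgc3* in the gamma cluster. In control alone *Pcdhb14* stood above *Pcdhb22*, at 14.2 against 13.5 CPM.

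**Figure D1:**
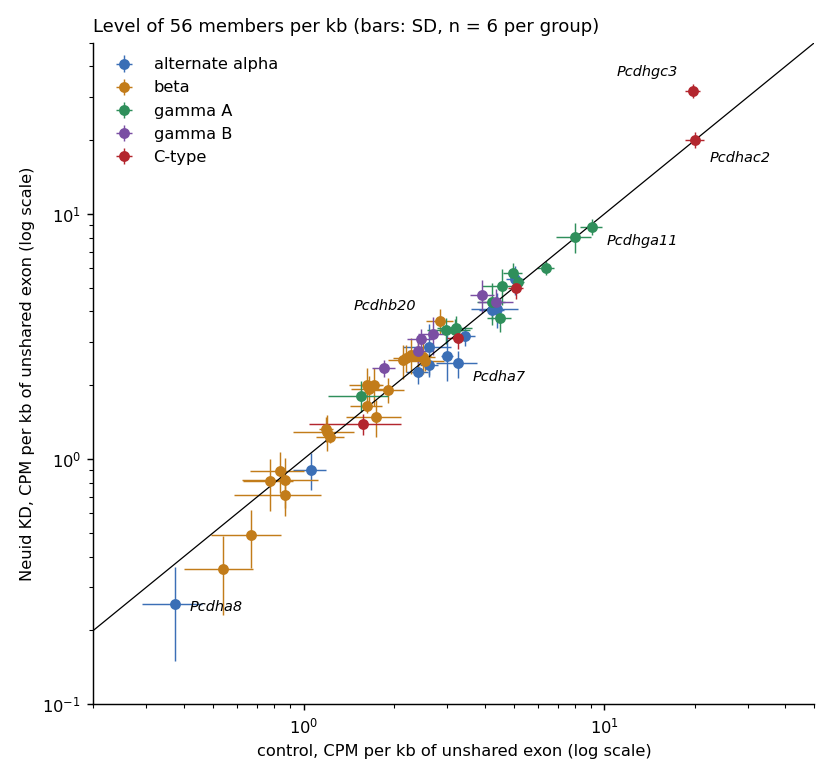
Level of the 56 tested members in control (x axis) and *Neuid* KD (y axis), each as CPM per kb of unshared exon on log scales, with the line of equal level. Points are group means and bars are SDs over 6 libraries. Most genes lie along the line over their whole range, while *Pcdhgc3* lies above it at 31.8 CPM per kb in *Neuid* KD against 19.7 in control. *Pcdhac2*, the next member by level, lies on the line.

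The comparison of *Neuid* KD with control asked how the transcriptome of these neurons responds to loss of the lncRNA. Of the 56 tested members, 4 were higher in *Neuid* KD with an adjusted p under 0.05 (*Pcdhgc3*, *Pcdhb20*, *Pcdhgb4* and *Pcdhgb5*), where 6.31% of all 19578 tested genes were higher. *Pcdha7* was the 1 lower member, where 2.42% of all tested genes were lower. Both shares of the members, 7.14% and 1.79%, were near the background. With an absolute log2 fold change above 0.5 as well, *Pcdhgc3* was left among the higher members, with a background of 2.44%, while *Pcdha7*, at -0.41, fell short of that size, with a background of 0.792%. In *Pcdhgc3* and *Pcdhgb4* all 6 *Neuid* KD libraries were above all 6 control libraries, as in 4.13% of tested genes, and in *Pcdha7* all were below, as in 1.57%. At an unadjusted p under 0.05 by edgeR, 14 members were higher and 2 lower, where 11.9% and 6.96% of all tested genes were. As shares of the 56 members, the higher count was above that background and the lower count below it, which was not tested. The median log2 fold change was 0.05 over the members, with 34 of 56 above 0, and -0.03 over all tested genes, with 8698 of 19578 above 0. The members' median turned negative with upper-quartile scaling, at -0.016, and without replicate 5 or replicate 6 of *Neuid* KD, at -0.013 and -0.0033, where the median of all tested genes was -0.088, -0.073 and -0.069. For 39 of the 56 members the 95% interval of the log2 fold change lay wholly within 0.5 of 0. That of *Pcdhgc3* lay wholly above 0.5, and those of the other 16 reached past 0.5 on at least 1 side. In bulk RNA, a change in the number of cells that use a gene and a change in the RNA per cell cannot be told apart.

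**Figure D2:**
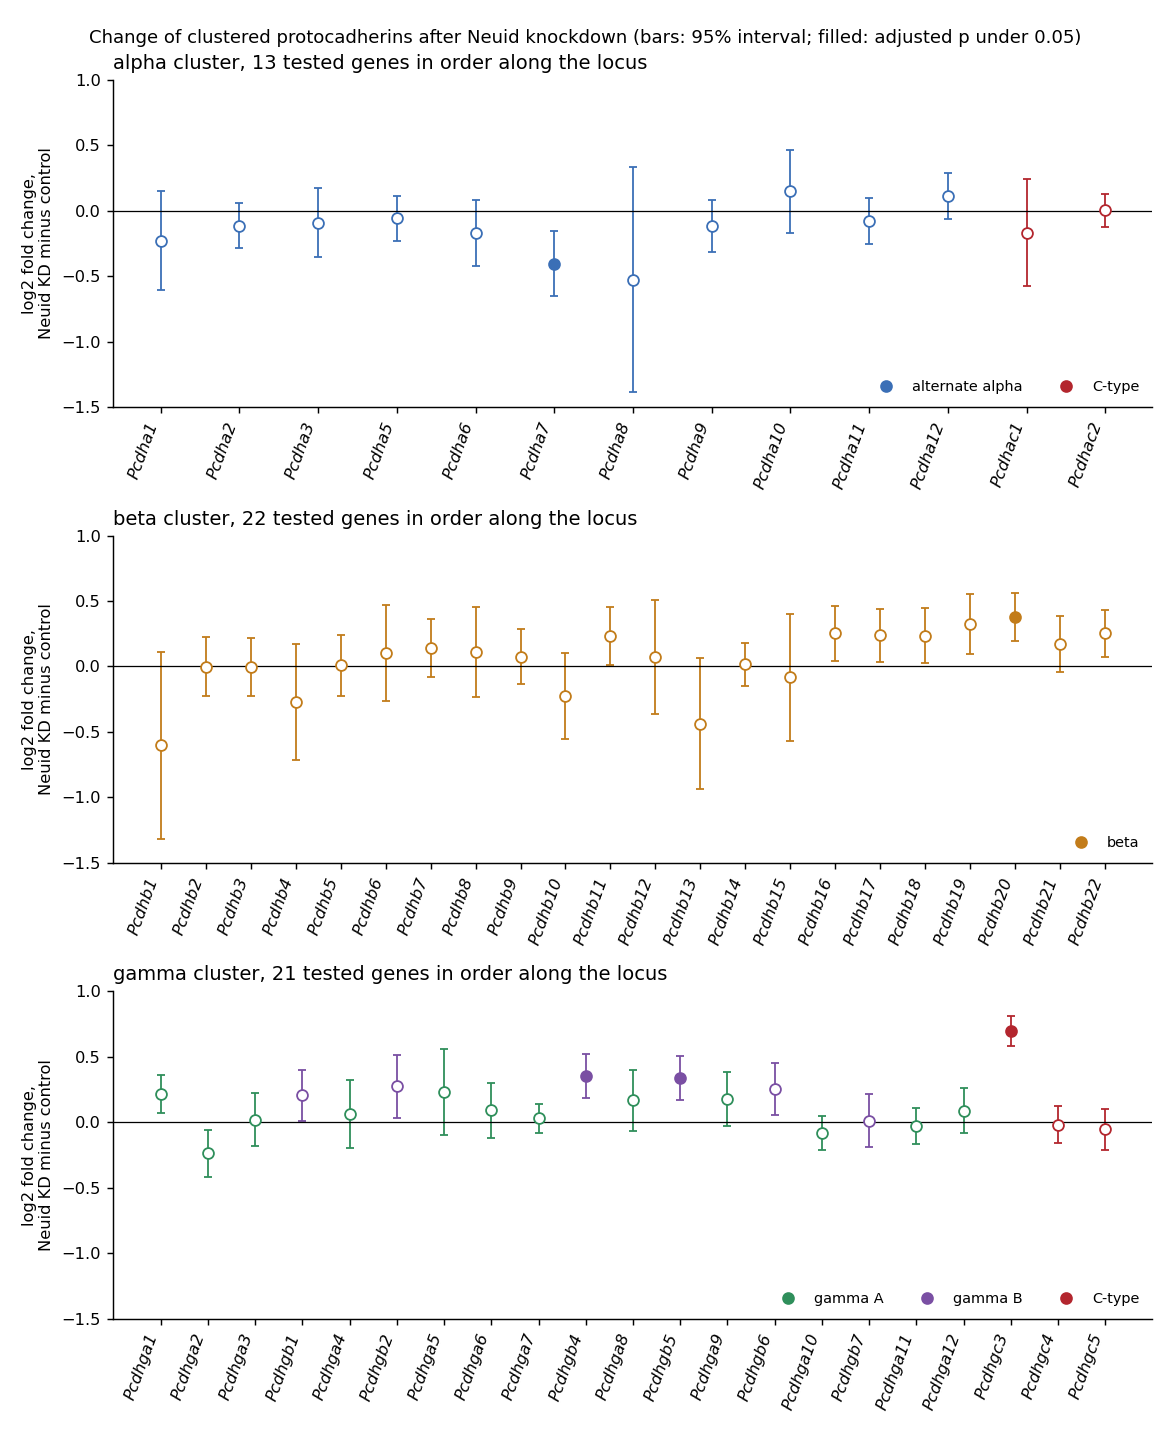
Log2 fold change (*Neuid* KD minus control, y axis) of the 56 tested members in their order along the alpha, beta and gamma clusters (x axis), with 95% intervals from edgeR and colours for the classes. Filled points passed an adjusted p under 0.05. *Pcdhgc3* stands highest at 0.69, the 7 genes at the end of the beta cluster and the 6 gamma B genes all lie above 0, and 9 of the 11 alternate alpha genes lie below 0.

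*Pcdhgc3* rose 1.62-fold (95% interval 1.49 to 1.75) after *Neuid* knockdown, while the 95% intervals of the other 4 C-type isoforms ended at 1.18 or below. In control libraries *Pcdhgc3* (ENSMUSG00000102918) was at 63.1 CPM in the lowest, 65.0 in the median and 71.4 in the highest library, and in *Neuid* KD at 95.9, 108 and 117 CPM. The groups did not overlap, and the lowest *Neuid* KD library was well above every control library. The means were 66.4 ± 3.81 and 107 ± 7.07 CPM (SD, n = 6 per group), from 1139 to 3088 reads per library, which is 0.69 on the log2 scale with a standard error of 0.0545 (edgeR adjusted p = 9.0e-08). In the high-background libraries alone, at 100 CPM or more, the log2 value was 0.74 (edgeR adjusted p = 1.3e-07), and in those under 100 CPM it was 0.58 (edgeR adjusted p = 2.7e-10). The test was passed under all 26 alternatives, with log2 fold changes from 0.58 to 0.74. Part of the unshared exon of *Pcdhgc3*, 1559 of 3380 bases, faces the antisense gene BC037039. This gene held 29 to 93 reads per library, at 2.55 ± 0.645 CPM in control and 2.59 ± 0.789 in *Neuid* KD (SD, n = 6 per group), with an edgeR adjusted p of 0.977.

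*Pcdhac2* (ENSMUSG00000102697), the other abundant C-type isoform, was at 52.5, 61.7 and 64.6 CPM in the lowest, median and highest control library and at 55.5, 60.1 and 66.1 in *Neuid* KD. The groups overlapped over almost their whole range. The fold change was 1.00 with a 95% interval of 0.917 to 1.09 (edgeR adjusted p = 0.990), an interval that leaves out the rise of *Pcdhgc3*. *Pcdhgc4*, the isoform on which neuronal survival depends, was at 17.6 ± 0.999 CPM in control and 17.3 ± 1.71 in *Neuid* KD, a fold of 0.988 (0.896 to 1.09). *Pcdhgc5*, which binds GABA-A receptors, was at 15.04 ± 1.27 and 14.4 ± 1.40 CPM, a fold of 0.963 (0.865 to 1.07). *Pcdhac1* was low and more variable, at 4.02 ± 1.36 and 3.56 ± 0.353 CPM (SD, n = 6 per group), and its fold of 0.889 carried a wide interval of 0.670 to 1.18. None of these 4 passed the test, at edgeR adjusted p between 0.770 and 0.990.

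The contrast between *Pcdhgc3* and the other C-type isoforms was also visible in the raw reads, without any scaling between libraries. For each *Pcdhac2* read there were 1.04 to 1.22 reads of *Pcdhgc3* in control and 1.65 to 2.05 in *Neuid* KD. For each *Pcdhgc4* read there were 3.41 to 4.06 in control and 5.73 to 6.97 in *Neuid* KD. For each *Pcdhgc5* read the ranges were 3.93 to 4.93 and 6.51 to 8.60. These 3 ratios did not overlap between the groups. For *Pcdhac1*, the least abundant of them, they overlapped, at 10.4 to 28.6 in control and 27.7 to 35.0 in *Neuid* KD. The ratios were chosen after the values were seen and were not tested.

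**Figure D3:**
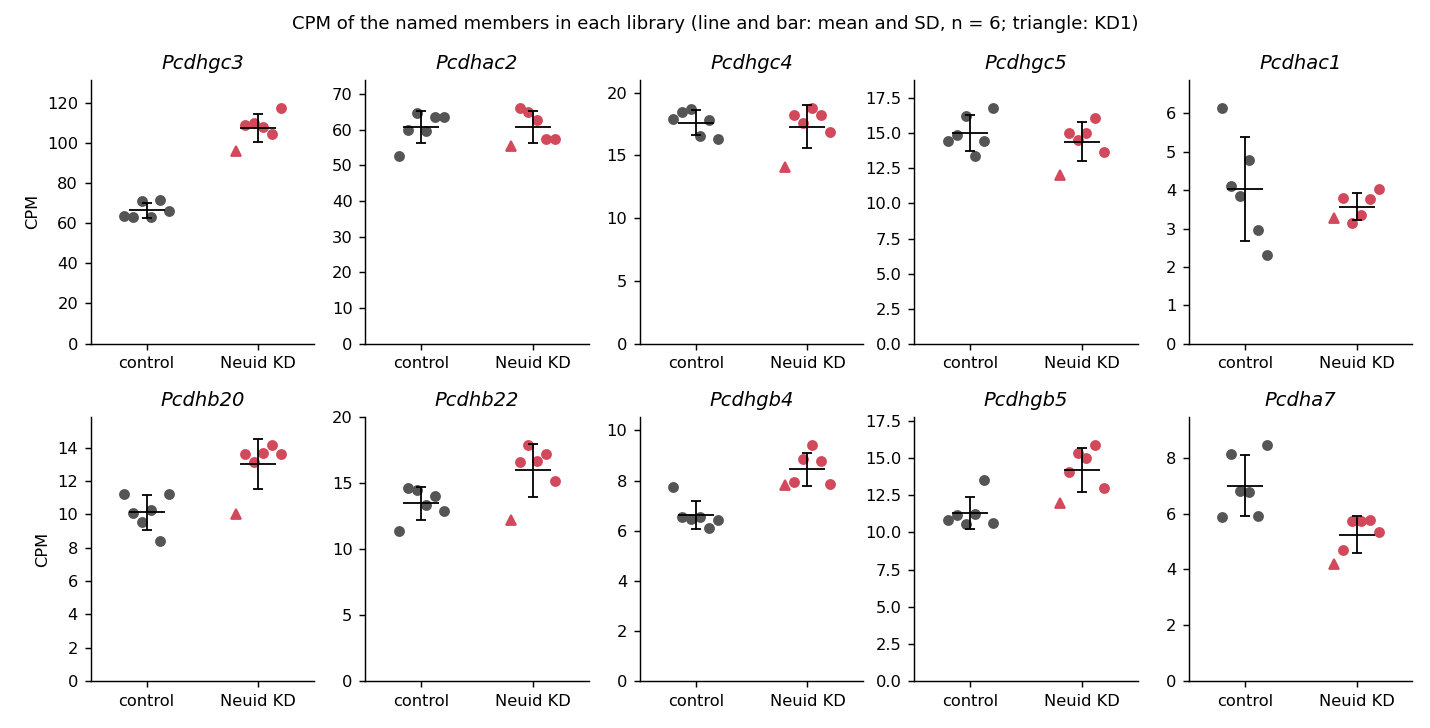
CPM (y axis, from 0, own scale per gene) of the 5 C-type isoforms, *Pcdhb20*, *Pcdhb22*, *Pcdhgb4*, *Pcdhgb5* and *Pcdha7* in each control and *Neuid* KD library. Points are libraries, lines and bars are means and SDs (n = 6), and triangles mark replicate 1 of *Neuid* KD. *Pcdhgc3* separates the groups by a wide gap, from 71.4 to 95.9 CPM, while in *Pcdhb20* the triangle lies at 10.0 CPM, among the control libraries.

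Among the alternate gamma isoforms, all 6 B genes had a positive log2 fold change by edgeR with TMM scaling, and 2 of them rose. In the same fit, 8698 of all 19578 tested genes were positive. *Pcdhgb4* was at 6.11, 6.50 and 7.74 CPM in the lowest, median and highest control library and at 7.83, 8.36 and 9.41 in *Neuid* KD. The groups did not overlap, but the highest control and the lowest *Neuid* KD library were close. The mean was 6.64 ± 0.566 CPM in control and 8.44 ± 0.659 in *Neuid* KD (SD, n = 6 per group), an increase of 0.35 on the log2 scale with a standard error of 0.0810 (edgeR adjusted p = 0.00877). *Pcdhgb5* was at 10.5, 11.0 and 13.5 CPM in control and at 12.0, 14.5 and 15.9 in *Neuid* KD. A single control library reached into the *Neuid* KD range. The increase was 0.34 on the log2 scale with a standard error of 0.0794 (edgeR adjusted p = 0.0104). This call was lost without replicate 6 of control or replicate 3, 4 or 5 of *Neuid* KD, at edgeR adjusted p from 0.0511 to 0.0690. Over the 6 gamma B genes the log2 fold changes had a median of 0.27 and a range of 0.01 to 0.35, and 5 were higher at an unadjusted p under 0.05 (11.9% of all tested genes). At the low end stood *Pcdhgb7*, at 0.01 (95% interval -0.19 to 0.22). With upper-quartile scaling the median of these genes was 0.20 and 5 of 6 were positive. The count was also 5 with DESeq2 size factors, DESeq2's Wald test, 1 factor of unwanted variation and background as covariate. It was 5 in the libraries with at least 100 CPM of background and with the filter at a mean of 1 CPM. So it was with library sizes over all genes and when certain single libraries were left out.

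The 12 gamma A genes, which alternate with the B genes along the same stretch, had a median log2 fold change of 0.08, with 9 of 12 positive. By edgeR none of the 12 had an adjusted p under 0.05, and at an unadjusted p under 0.05 there was 1 higher and 1 lower. DESeq2 called *Pcdhga1* higher and *Pcdhga2* lower, and limma-voom called 0 of the 12. *Pcdhga1*, the first gene of the cluster, was at 16.1 ± 1.18 and 18.6 ± 1.78 CPM (SD, n = 6 per group, edgeR adjusted p = 0.0709). *Pcdhga2*, the next gene, was at 11.5 ± 1.02 and 9.68 ± 1.21 CPM (edgeR adjusted p = 0.109). The most abundant alternate isoform, *Pcdhga11*, was at 23.9 CPM in control and 23.4 in *Neuid* KD, with a 95% interval of the log2 fold change from -0.17 to 0.11. *Pcdhga10* is faced along all 2613 unshared bases by Gm26672 on the opposite strand and still held 182 to 532 reads per library, so its reads were not all lost to that overlap. In all, 9 genes on the opposite strand face exons of members, with at most 93 reads in a library, and the 5 that were tested had edgeR adjusted p from 0.605 to 0.977.

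In the beta cluster *Pcdhb20* rose, and it stands among 7 genes toward the gamma end that all had a positive log2 fold change. *Pcdhb20* was at 8.42, 10.2 and 11.3 CPM in the lowest, median and highest control library and at 10.0, 13.6 and 14.1 in *Neuid* KD. Of the *Neuid* KD libraries, only replicate 1 lay within the control range. Mean levels were 10.1 ± 1.07 CPM in control libraries and 13.0 ± 1.51 in those of *Neuid* KD (SD, n = 6 per group), 0.38 higher on the log2 scale with a standard error of 0.0867 (edgeR adjusted p = 0.00879). The 7 last genes of the cluster, *Pcdhb16* to *Pcdhb22* had a median of 0.25, a range of 0.17 to 0.38 and 6 of 7 higher at an unadjusted p under 0.05 (11.9% of all tested genes). The first 15 genes, *Pcdhb1* to *Pcdhb15*, had a median of 0.01 with 8 of 15 positive. This division of the cluster was chosen after the values were seen and was not tested. All 7 stayed positive under each alternative run, with medians from 0.18 to 0.30. These runs reused the libraries in which the division was seen, so they cannot test it. Among the 7 genes *Pcdhb19* was at 11.6 ± 1.503 and 14.3 ± 2.48 CPM (edgeR adjusted p = 0.0844) and *Pcdhb22*, the beta gene with the highest mean CPM over both groups, at 13.5 ± 1.23 and 15.97 ± 2.05 CPM (SD, n = 6 per group, edgeR adjusted p = 0.0775). The first 15 genes were also the less abundant ones, at a median of 1.24 CPM per kb against 2.33 for the last 7, and the lowest of them had wide intervals. *Pcdhb1*, with 14 to 36 reads per library, had the most negative estimate of all members, -0.60, with a 95% interval of -1.31 to 0.11.

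Of the 11 alternate alpha isoforms that were tested, 9 had a negative log2 fold change, with a median of -0.11 and a range of -0.53 to 0.15. Among all 19578 tested genes 10880 were negative. Within the libraries with at least 100 CPM of background, 7 of the 11 isoforms were negative. Of these isoforms, *Pcdha7* was the 1 that passed the test. It was at 5.89, 6.79 and 8.45 CPM in the lowest, median and highest control library and at 4.21, 5.54 and 5.78 in *Neuid* KD. The groups did not overlap, although the lowest control and highest *Neuid* KD libraries were nearly level. Mean levels were 7.00 ± 1.09 CPM in control and 5.25 ± 0.659 in *Neuid* KD (SD, n = 6 per group), a log2 difference of -0.41 with a standard error of 0.117 (edgeR adjusted p = 0.0385). This call was lost when replicate 2, 3, 4 or 6 of control or replicate 2 of *Neuid* KD was left out, with edgeR adjusted p from 0.0564 to 0.102. *Pcdha12* and *Pcdha10* were the positive genes of the class, at 0.11 and 0.15. *Pcdha8* had the widest interval of all members, from -1.38 to 0.33, with 4 to 27 reads per library. The median of the class stayed negative under all scalings, at -0.18 with upper-quartile scaling.

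Within both ranges of background the called members other than *Pcdhgc3* kept their sign, but mostly not their call. In the libraries with at least 100 CPM of background the log2 fold changes were 0.27 for *Pcdhb20*, 0.28 for *Pcdhgb4*, 0.34 for *Pcdhgb5* and -0.49 for *Pcdha7*, with edgeR adjusted p between 0.134 and 0.534. In the libraries under 100 CPM they were 0.55, 0.44, 0.28 and -0.27, and *Pcdhb20* passed (edgeR adjusted p = 0.00289). Replicate 1 of *Neuid* KD weighed most on the counts. Without it, 9 members were higher, with *Pcdhb16*, *Pcdhb17*, *Pcdhb19*, *Pcdhb22* and *Pcdhgb6* added to the 4, where 6.11% of all tested genes were higher, and *Pcdha7* was lower. With that library set aside, 7 members had all *Neuid* KD libraries above all control libraries, as in 6.68% of tested genes. They were *Pcdhb17*, *Pcdhb20*, *Pcdhb21*, *Pcdhb22*, *Pcdhgb1*, *Pcdhgb4* and *Pcdhgc3*. *Pcdha7* was then the 1 member with all below, as in 2.03% of tested genes.

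Summed over a cluster, the gamma genes and the beta genes were each higher in 5 of 6 *Neuid* KD libraries than in any control library. Over all libraries the alpha, beta and gamma sums each overlapped between the groups. The gamma sum was 313 ± 8.24 CPM in control and 366 ± 24.5 in *Neuid* KD (SD, n = 6 per group). The *Neuid* KD libraries lay between 372 and 378 CPM, except replicate 1 at 316, which fell within the control range of 303 to 325. Much of the difference was *Pcdhgc3*. Without it the gamma sum was 246 ± 5.24 and 259 ± 19.1 CPM, overlapping, and without replicate 1 of *Neuid* KD as well it was 259 to 269 against 239 to 254 in control. The beta sum was 151 ± 6.27 and 166 ± 16.1 CPM, and its overlap also came from replicate 1 of *Neuid* KD, at 135 CPM. The other *Neuid* KD libraries lay between 161.9 and 180.0 CPM and the control libraries between 144 and 161.5. The alpha sum overlapped with and without this library, and was 148 ± 6.08 and 143 ± 8.07 CPM with it. A sum over members was not tested.

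Shares of reads within a library do not depend on the scaling between libraries. *Pcdhgc3* made up 20.6% to 22.4% of the gamma reads in control and 28.1% to 31.2% in *Neuid* KD, without overlap, and here replicate 1 of *Neuid* KD, at 30.3%, was among the highest. As shares of a whole, those of other isoforms must fall when 1 gains, and *Pcdhgc4* went from 5.64% ± 0.337 to 4.72% ± 0.226 and *Pcdhgc5* from 4.81% ± 0.367 to 3.93% ± 0.232 of gamma reads while their CPM gave intervals that include no change. *Pcdhac2* made up 40.9% ± 1.76 of alpha reads in control and 42.4% ± 2.14 in *Neuid* KD (SD, n = 6 per group), overlapping. Of all member reads, the gamma cluster held 50.4% to 52.2% in control and 53.1% to 55.8% in *Neuid* KD, the alpha cluster 22.8% to 25.4% and 20.3% to 22.3%, and the beta cluster 23.4% to 25.7% and 23.3% to 25.7%. Gamma and alpha shares did not overlap between the groups, and beta shares did. The gamma share includes *Pcdhgc3*, so a gain of that gene alone raises it and lowers the alpha and beta shares. Cluster shares without *Pcdhgc3* were not computed.

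**Figure D4:**
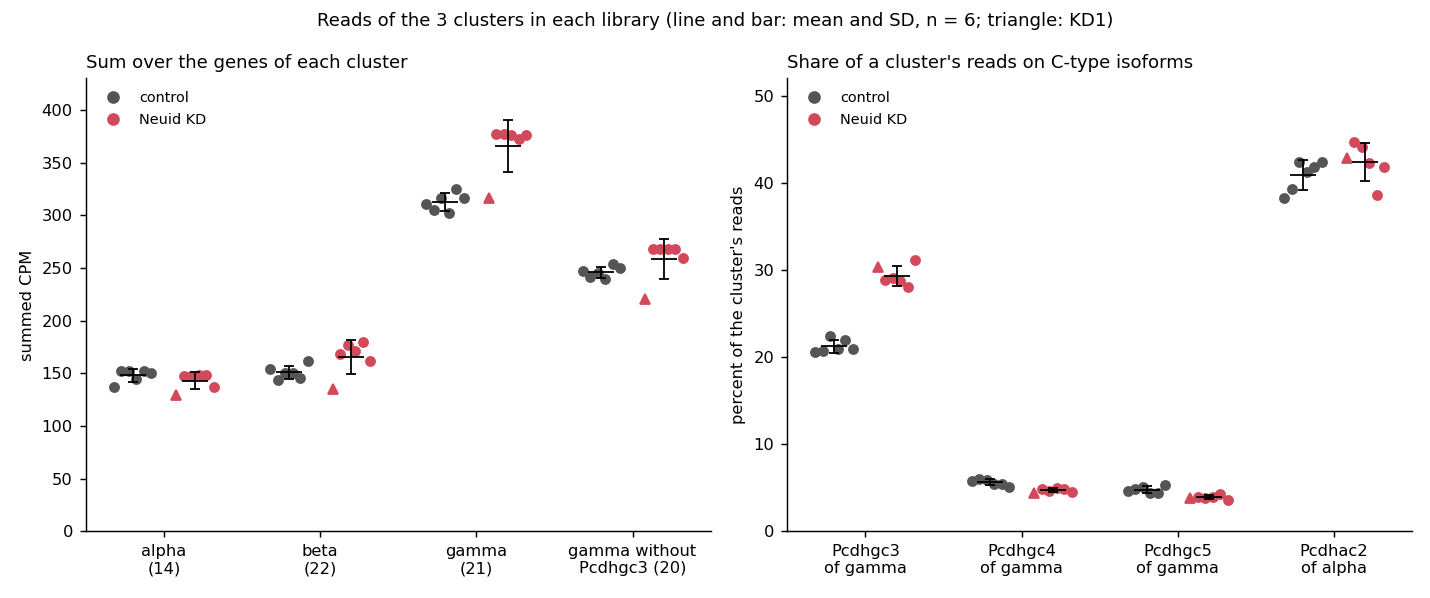
Left, summed CPM (y axis) of the alpha, beta and gamma genes, and of gamma without *Pcdhgc3*, in each library. Right, the percent of its cluster's reads (y axis) on *Pcdhgc3*, *Pcdhgc4*, *Pcdhgc5* and *Pcdhac2*. Points are libraries, lines and bars are means and SDs (n = 6), and triangles mark replicate 1 of *Neuid* KD, which sits low in the sums (316 CPM for gamma) but with its group in the share of *Pcdhgc3* (30.3%).

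Markers of glial cells moved in the same libraries as *Pcdhgc3*. Of 21 tested homeostatic astrocyte markers, 20 rose, among them *S100b* (log2 fold change 2.64), *Apoe* (2.28), *Gja1* (2.27) and *Aqp4* (2.10), and the list summed to 2411 to 3037 CPM in control and 5829 to 6504 in *Neuid* KD. Of 12 oligodendrocyte precursor markers 6 rose, led by *Bcan* (1.87) and *Olig2* (1.67). The others did not pass: *Pdgfra* (0.44), *Cspg4* (0.16), *Sox10* (0.09), *Cacng4* (0.03), *C1ql1* (-0.05) and *Gpr17* (-0.77), so the list did not rise as a whole. *Sox10*, *C1ql1* and *Gpr17* were low, at means of 0.636 to 1.04 CPM in control. The list summed to 628 to 813 CPM in control and 1575 to 1843 in *Neuid* KD. Much of that difference was *Ptprz1*, at means of 428 and 1096 CPM. Of 15 pan-neuronal markers, *Nefm* rose (0.21) and *Elavl4* fell (-0.21), and the sums overlapped at 7569 to 8848 and 7463 to 8880 CPM. Among all tested genes, 6.31% rose and 2.42% fell. Of 12 fibroblast and mural cell markers *Fn1* fell (-0.46), with sums of 102 to 137 and 81.8 to 98.1 CPM. By edgeR, 0 of 5 microglia and 0 of 6 endothelial markers that were tested had an adjusted p under 0.05, as by DESeq2 and limma-voom, and at an unadjusted p under 0.05 there were 0 by edgeR in both lists, and 1 lower microglia marker by each of the other tests. Their sums overlapped, at 14.6 to 22.9 and 12.8 to 22.1 CPM for microglia and 6.94 to 25.2 and 7.07 to 23.4 CPM for endothelium, with the endothelial marker *Ly6c1* at no more than 3 reads in any library. The median log2 fold change was 1.31 over the astrocyte, 0.37 over the oligodendrocyte precursor, -0.0023 over the pan-neuronal, -0.48 over the fibroblast and mural, -0.31 over the microglia and -0.58 over the endothelial markers, beside -0.03 over all tested genes. The part of these cell types in the result for *Pcdhgc3* and for the other members was not tested.

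Of the 23 factors of promoter choice and chromatin at the clusters, which include *Ctcf*, the cohesin subunits *Rad21*, *Smc1a* and *Smc3*, the silencer *Smchd1* and the DNA methyltransferases, 0 had an adjusted p under 0.05 by edgeR, DESeq2 or limma-voom, and 3 were higher at an unadjusted p under 0.05, as were 11.9% of all tested genes. The median log2 fold change of this list was 0.03. *Ctcf* was at 52.9 CPM in control and 56.3 in *Neuid* KD, and *Rad21* at 136 and 146 CPM. Of 26 cytoplasmic or membrane partners and cleavage enzymes 3 rose. They were *Nlgn1* (log2 fold change 0.35), a postsynaptic adhesion protein of the membrane, the kinase *Fyn* (0.31) and the WAVE complex member *Cyfip1* (0.22). *Axin1*, the partner of *Pcdhgc3*, was at 31.03 and 32.2 CPM (edgeR adjusted p = 0.754). The median of the 26 was 0.08, and 11.5% of them rose, where 6.31% of all tested genes did. Of the 13 nonclustered protocadherins, which are single genes elsewhere in the genome, 3 rose and 2 fell: *Pcdh18* (0.67), *Pcdh9* (0.64) and *Pcdh10* (0.28) were higher and *Pcdh8* (-0.27) and *Pcdh20* (-0.26) lower, with a median of 0.0076 over the list. Of 20 classical cadherins and catenins 8 rose and 2 fell, with *Cdh4* (1.22), *Cdh6* (0.79), *Cdh13* (0.78) and *Cdh20* (0.73) changed most. The median of the 20 was 0.13. By share, 40% of the cadherins and catenins and 23.1% of the nonclustered protocadherins rose, where 6.31% of all tested genes did. The shares that fell were 10% and 15.4%, where 2.42% of all tested genes fell. For comparison, *Pcdhgc3* stood at 0.69, near *Pcdh9* and *Pcdh18*.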

How the data were processed

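The authors sequenced libraries of the SMARTer Stranded Total RNA-Seq pico kit as single reads, converted them with bcl2fastq, aligned them to mm10 with STAR and counted reads per gene with featureCounts. They deposited raw counts per gene. The annotation, strand and overlap settings of the counting are not given in the sources used here. Symbols and exons were taken from GENCODE M21 on GRCm38, which named 55144 of 55471 identifiers.

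The names in the count table were matched to the labels of the 12 libraries by the group word and replicate number. They also hold the word Late, which the labels do not explain. Genes were kept with filterByExpr, scaled by TMM (factors 0.937 to 1.09) and compared by edgeR 4.0.16 (glmQLFit, glmQLFTest) under R 4.3.3, without covariates, with Benjamini-Hochberg adjustment over all 19578 tested genes and a threshold of 0.05. The fit was tested on simulated data. CPM are counts relative to the TMM-scaled library size. Given in full are members past the threshold, the 5 C-type isoforms, the highest member of each cluster by CPM or per kb and, of further lists, at most 4 genes past the threshold with the largest change. Members such as *Pcdhb19*, *Pcdhga1* and *Pcdhga2*, and genes such as *Ctcf*, *Rad21*, *Axin1* and BC037039, were named after their values were seen. The members and lists were chosen with earlier results of these data known. No 2 libraries of the same group agreed within sampling noise (chi-square per degree of freedom at least 3.29). Alternatives were other scalings, DESeq2 1.42.0, limma 3.58.1 voom, 1 factor of unwanted variation, background as covariate or split, other filters and folds, a replicate block, and each library left out. Library sizes over all genes, robust dispersions, and background with the block were added after seeing the data. Intervals cover the spread between libraries and reads carry no molecular identifiers. Sequences of the members are not printed here.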

Additional observations from a re-analysis of the deposited data

Results flagged for a closer look

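In groups of 6 libraries, a value was singled out when its gap to the nearest other library, relative to the range of the group, exceeded Dixon's 95% critical value. Of 56 groups examined, 8 held such a value, where chance gives about 1 in 20 groups, and the sums among them share genes and libraries. In 6 of the 8 the value was the lowest and came from replicate 1 of *Neuid* KD, the smallest library. It held *Pcdhb20* at 10.0 CPM (the others 13.1 to 14.1), the gamma sum at 316 CPM (372 to 378), the gamma A sum at 143 CPM (166 to 171), the gamma B sum at 50.9 CPM (62.8 to 65.9), the sum of all members at 581 CPM (676 to 702) and the gamma sum without *Pcdhgc3* at 220 CPM (259 to 269). The other values were high control libraries, replicate 1 for *Pcdhgb4* at 7.74 CPM (6.11 to 6.54) and replicate 5 for *Pcdhgb5* at 13.5 CPM (10.54 to 11.2).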

How the results depend on the processing

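*Pcdhgc3* and *Neuid* kept their direction and their call under all 26 alternatives. Beside 4 higher and 1 lower member, there were 7 and 2 with DESeq2's Wald test, 7 and 1 with background as covariate, 1 and 0 within the libraries at 100 CPM of background or more, 3 and 0 within those under it, 3 and 0 without the filter, and 1 and 0 at a log2 fold change above 0.5. With upper-quartile scaling and with the filter at a mean of 1 CPM there were 2 lower members. Leaving out each library gave 3 to 9 higher and 0 to 2 lower members: 9 higher without replicate 1 of *Neuid* KD, 2 lower without its replicate 5. The replicate block gave 5 higher and 1 lower member, with *Pcdhb22* added, but the labels do not say whether equal numbers mark pairs. Same-number correlations ran from -0.588 to 0.702, with 2 of 6 over 0.1 and 4 of 12 libraries closest to their own number. These values show no regular pairing but cannot exclude it, since background also differed within a number. For replicate 4 it was 592 CPM in control and 50.5 in *Neuid* KD.

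Of all tested genes, 1235 were higher and 473 lower, so that 72.3% of calls were higher, and 45.5% with upper-quartile scaling (1049 and 1259), 58.9% with library sizes over all genes (1016 and 710), 59.8% with DESeq2's Wald test (1496 and 1004), 61.1% with the filter at a mean of 1 CPM (1343 and 854) and 58.1% within libraries under 100 CPM of background (1110 and 799). Lower genes were 988 with 1 factor of unwanted variation, 987 with background as covariate and 982 with the block as well. Counts were 651 and 205 within libraries at 100 CPM or more, 711 and 229 without the filter, 797 higher above a log2 fold change of 0.3, and 477 and 155 above 0.5. Leaving out each library gave 822 to 1208 higher and 355 to 780 lower genes. The cause of these differences was not tested, apart from the fewer libraries or stricter thresholds named.

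*Pcdhac2* lies so near 0 that its sign turned: its log2 fold change was -0.015 with DESeq2 size factors, -0.057 with upper-quartile scaling, -0.015 with DESeq2's Wald test, -0.018 with 1 factor of unwanted variation, -0.014 with background as covariate, alone or with the block, -0.045 and -0.019 within libraries above and below 100 CPM of background, -0.020 with the filter at a mean of 1 CPM, -0.032 with library sizes over all genes and -0.035 to 0.026 with each library left out, never passing the test. *Pcdhgc4* ranged from -0.066 to 0.0047 with each library left out. Depth limits the low members: 25 of 57 had at least 100 reads in every library.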
